A study of Mus musculus with 6 samples.

Results

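The 9 genes described here encode the core of the TGFβ pathway in the mouse: the ligands Tgfb1, Tgfb2 and Tgfb3, the receptors Tgfbr1, Tgfbr2 and Tgfbr3, and the signal transducers Smad2, Smad3 and Smad4. They were chosen by name as the ligands, receptors and Smads of the pathway. No measured value entered the rule, but earlier results of these data were known when they were chosen. They are 9 of 22350 protein-coding genes of the GENCODE vM1 annotation on the mouse genome build NCBIM37 (mm9). For each gene, every accessible region up to 100 kb away from its annotated 5′ end was taken, which gave 64 of the 39435 regions found in the whole study. A region lying in such a window is near the gene but need not act on it.

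Open chromatin was mapped by ATAC-seq, in which the transposase Tn5 inserts sequencing adapters into open DNA, in NMuMG cells, an epithelial line derived from the normal mouse mammary gland. All cells were first kept for 6 h in medium that lacked serum and insulin. One group then got vehicle, the diluent of the ligand with bovine serum albumin, for 2 h, and the other groups got recombinant TGFβ1 (5 ng/ml) for 2 h or for 12 h. There were 2 biological replicates a group, which makes 6 samples, and the replicates of each group had been combined into 1 list of reproducible peaks. The cells at 12 h were also longer without serum than the vehicle cells, and the treatment and this time cannot be told apart. A list gives the position and width of a region without replicate values, so neither a spread between replicates nor a test between groups could be had. Values are therefore compared between the 3 lists and set beside the same values over all regions or all protein-coding genes. The reads behind each region are not in the lists, so no interval on its signal could be given. The study does state the reads of each library, by which the vehicle libraries were not the shallowest group. The vehicle list is the shortest, and how depth bears on the length of a list was not tested.

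TGFβ ligands are secreted in a latent form and, once released, bind the type II receptor TGFBR2, a constitutively active kinase that recruits and phosphorylates the type I receptor TGFBR1. TGFBR3 (betaglycan) is a co-receptor without kinase activity that presents ligand to the signaling receptors. TGFBR1 phosphorylates SMAD2 and SMAD3, which join SMAD4, enter the nucleus and act on target genes, often beside AP-1, the family of dimers formed by FOS and JUN proteins. In mammary epithelial cells the pathway is best known for growth arrest and for epithelial to mesenchymal transition.

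The sequences below show what lies in the accessible DNA at these genes. All are from NCBIM37, read 5′ to 3′ on the strand given. The first pair are the 250 bases just upstream of the annotated 5′ ends of Tgfb1 and Tgfbr2, shown because the region over the first was in both TGFβ lists and not in the vehicle list, whereas the region over the second was in all 3 lists. Capitals mark CG dinucleotides, the sites of DNA methylation in mammals.
Tgfb1 upstream, chr7:26471771-26472020 (plus strand): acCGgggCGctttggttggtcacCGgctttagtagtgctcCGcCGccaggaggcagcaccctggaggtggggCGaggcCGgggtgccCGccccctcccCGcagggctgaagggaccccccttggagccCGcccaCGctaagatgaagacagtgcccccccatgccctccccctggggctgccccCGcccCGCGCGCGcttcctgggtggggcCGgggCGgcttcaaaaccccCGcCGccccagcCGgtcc
Tgfbr2 upstream, chr9:116084384-116084633 (minus strand): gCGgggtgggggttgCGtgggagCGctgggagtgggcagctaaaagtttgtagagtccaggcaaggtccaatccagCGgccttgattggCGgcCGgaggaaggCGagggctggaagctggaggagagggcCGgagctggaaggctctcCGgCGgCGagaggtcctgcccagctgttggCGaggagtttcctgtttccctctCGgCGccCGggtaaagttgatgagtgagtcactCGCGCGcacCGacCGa
The Tgfb1 stretch had a GC content of 75.2% with 21 CG dinucleotides, and that of Tgfbr2 had 65.2% with 20. Over their whole width, the regions over the 5′ ends of these genes had a GC content of 67.6% and 59.1%. The median over the 9578 protein-coding 5′ ends with a region was 61.5% (quartiles 57.5% and 65.5%), and it was 61.6% for those in both TGFβ lists alone.

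The next sequences are the AP-1 matches found in regions of both TGFβ lists but not of the vehicle list, each with 20 bases to either side. Only the 500 bp around the center of each region were searched. The matches are shown because AP-1 is a partner of the Smads, and capitals mark the match. Distances are those from the 5′ end of the gene to the region.
Tgfb1, 18905 bp downstream of the 5′ end, chr7:26491013-26491059 (plus strand): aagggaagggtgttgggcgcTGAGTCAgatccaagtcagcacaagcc
Tgfbr1, 74379 bp upstream, chr4:47291453-47291499 (plus strand): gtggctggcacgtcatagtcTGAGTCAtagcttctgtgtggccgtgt
Tgfbr1, 49312 bp upstream, chr4:47316421-47316467 (plus strand): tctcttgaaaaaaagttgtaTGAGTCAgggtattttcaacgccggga
Tgfbr1, the same region, chr4:47316457-47316503 (plus strand): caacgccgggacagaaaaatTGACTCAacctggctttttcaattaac
Smad3, intron, 51240 bp downstream, chr9:63554374-63554420 (plus strand): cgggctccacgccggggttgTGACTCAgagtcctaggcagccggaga
Smad3, intron, 35987 bp downstream, chr9:63569695-63569741 (plus strand): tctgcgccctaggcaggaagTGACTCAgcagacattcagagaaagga
Smad3, intron, 11277 bp downstream, chr9:63594063-63594109 (plus strand): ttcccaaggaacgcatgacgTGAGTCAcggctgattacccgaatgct
Smad3, 80852 bp upstream, chr9:63687377-63687423 (plus strand): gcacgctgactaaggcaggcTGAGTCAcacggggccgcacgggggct
The last is the palindrome GTCTAGAC, to which Smad proteins bind, in a region of the same kind inside an intron of Tgfbr2. It was the only match of this motif in the central 500 bp of the 64 regions.
Tgfbr2, intron, chr9:116062752-116062799 (plus strand): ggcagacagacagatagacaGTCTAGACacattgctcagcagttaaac

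Near the 9 genes, the vehicle list held 35 regions that covered 21585 bp, the 2 h list 58 regions that covered 40283 bp and the 12 h list 57 regions that covered 42114 bp. Overlaid, they gave the 64 union regions. The 3 lists had 35 of them in common (54.7%, 95% Wilson interval 42.6 to 66.3), against 38.4% of all union regions of the study. A further 15 were in both TGFβ lists without vehicle (23.4%, 14.7 to 35.1), against 28.5%. These are called gained below, a word for the lists and not for a measured rise of signal. There were 7 regions at 2 h alone (10.9%, 5.40 to 20.9), against 12.9%, and 7 at 12 h alone (10.9%), against 16.3%. No region near the 9 genes was in the vehicle list but missing from a TGFβ list (0 of 64, with an upper limit of 5.66%), a pattern that made up 3.80% of all union regions. This depended on the length of the TGFβ lists. With these shortened to the length of the vehicle list, 20 regions were in all 3 lists, so some vehicle regions then lacked a TGFβ counterpart. The intervals cover counting error only, and regions of 1 gene are not independent of each other. The share of the whole study lay inside the interval for the gained regions and outside it for the regions in all 3 lists.

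**Figure D1:**
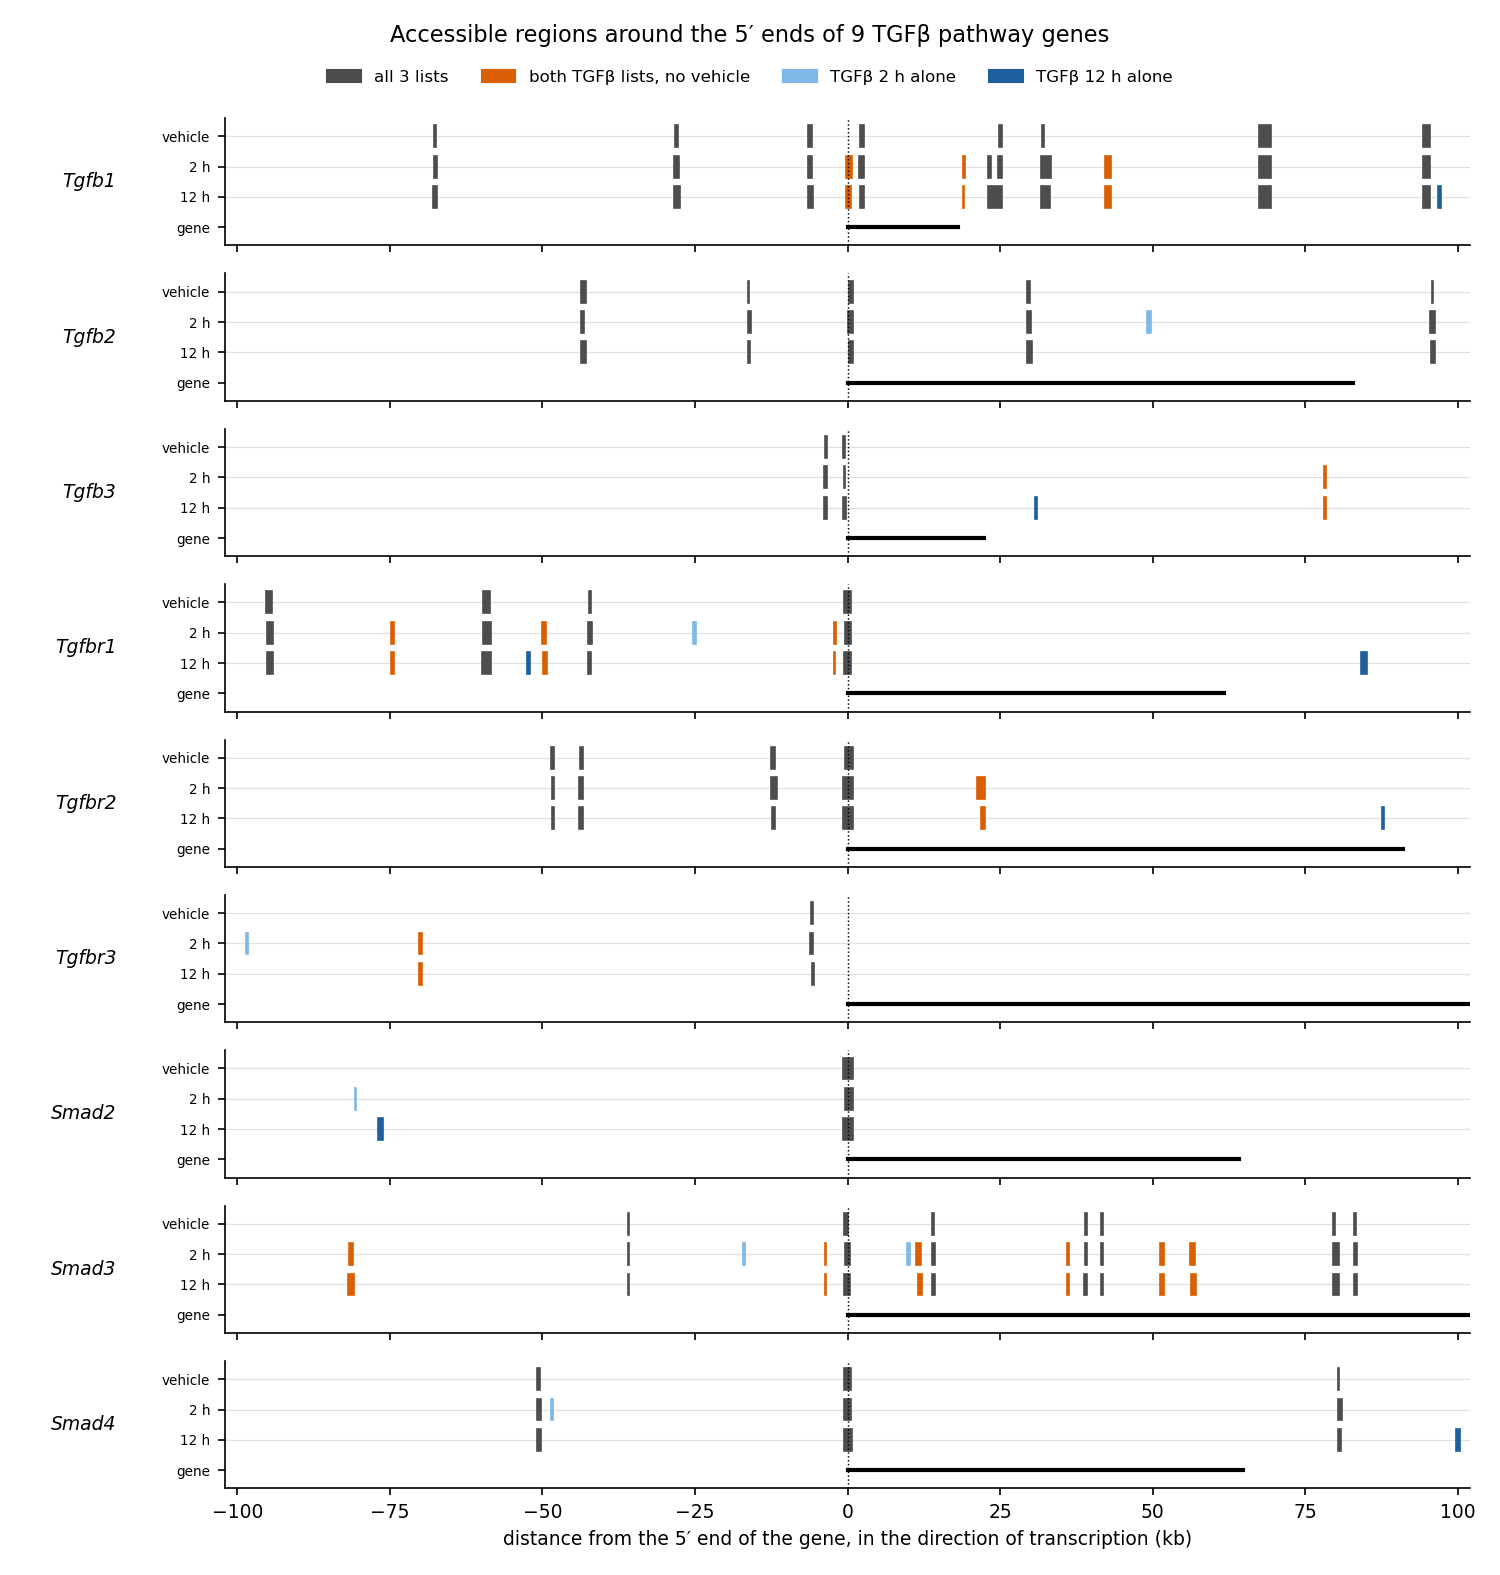
Accessible regions up to 100 kb away from the 5′ end of each gene, 1 panel per gene and 1 line per list. The horizontal axis is the distance from the 5′ end in kb, in the direction of transcription, each bar is a region (drawn with a thin outline so that narrow ones can be seen) and the black line is the gene body. Smad3 has 15 union regions and Smad2 and Tgfbr3 have 3 each, and gained regions (orange) lie at 6 of the 9 genes.

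The patterns differed by position. Of the 22 regions within 1000 bp of any annotated start site, 19 were in all 3 lists, a pattern of 76.7% of all start-site regions, and 3 were gained (13.6%, against 13.5%). Those 3 lay at Tgfb1 itself, in Col15a1 near Tgfbr1 and at Brdt near Tgfbr3. Of the 42 regions farther away, called distal, 16 were in all 3 lists, a pattern of 22.8% of all distal regions, and 12 were gained (28.6%, against 34.7%). All 14 regions found at 1 time point alone were distal, as were 91.8% of such regions in the whole study. Of the 64 regions, 39 were nearer to the 5′ end of the pathway gene than to that of any other protein-coding gene, and 25 were nearer to a neighbor. Among the 15 gained regions, 10 were nearest to the pathway gene and 6 lay inside it.

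The genes differed in how many regions surrounded them. Smad3 had 15 union regions, Tgfb1 had 12 and Tgfbr1 had 10. This order rested on the settings, since Smad3 had 6 and Tgfb1 had 9 with only the wider intervals of each list, both had 10 with the TGFβ lists shortened to the length of the vehicle list, and Smad3 had 19 and Tgfb1 had 20 with 200 kb to either side. Tgfb2 and Tgfbr2 had 6 each, Smad4 had 5, Tgfb3 had 4, and Tgfbr3 and Smad2 had 3 each. The median protein-coding gene had 5 (quartiles 2 and 8). Of protein-coding genes, 3.80% had at least as many regions as Smad3, 10.7% at least as many as Tgfb1 and 19.4% at least as many as Tgfbr1. The gained regions lay unevenly too, with 6 at Smad3, 3 each at Tgfb1 and Tgfbr1, 1 each at Tgfb3, Tgfbr2 and Tgfbr3, and none at Tgfb2, Smad2 or Smad4. The median gene had 1 (quartiles 0 and 2), and 1.83% of all genes had 6 or more. With only the wider intervals, or with 50 kb to either side, Smad3 and Tgfb1 had 3 gained regions each. The absence at Tgfb2 and Smad4 also rested on the settings. They had 2 gained regions each with only the wider intervals, and 1 each when the 5′ end of any transcript counted. In the latter case Tgfbr3 had 4, and Smad2 had none in any setting.

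**Figure D2:**
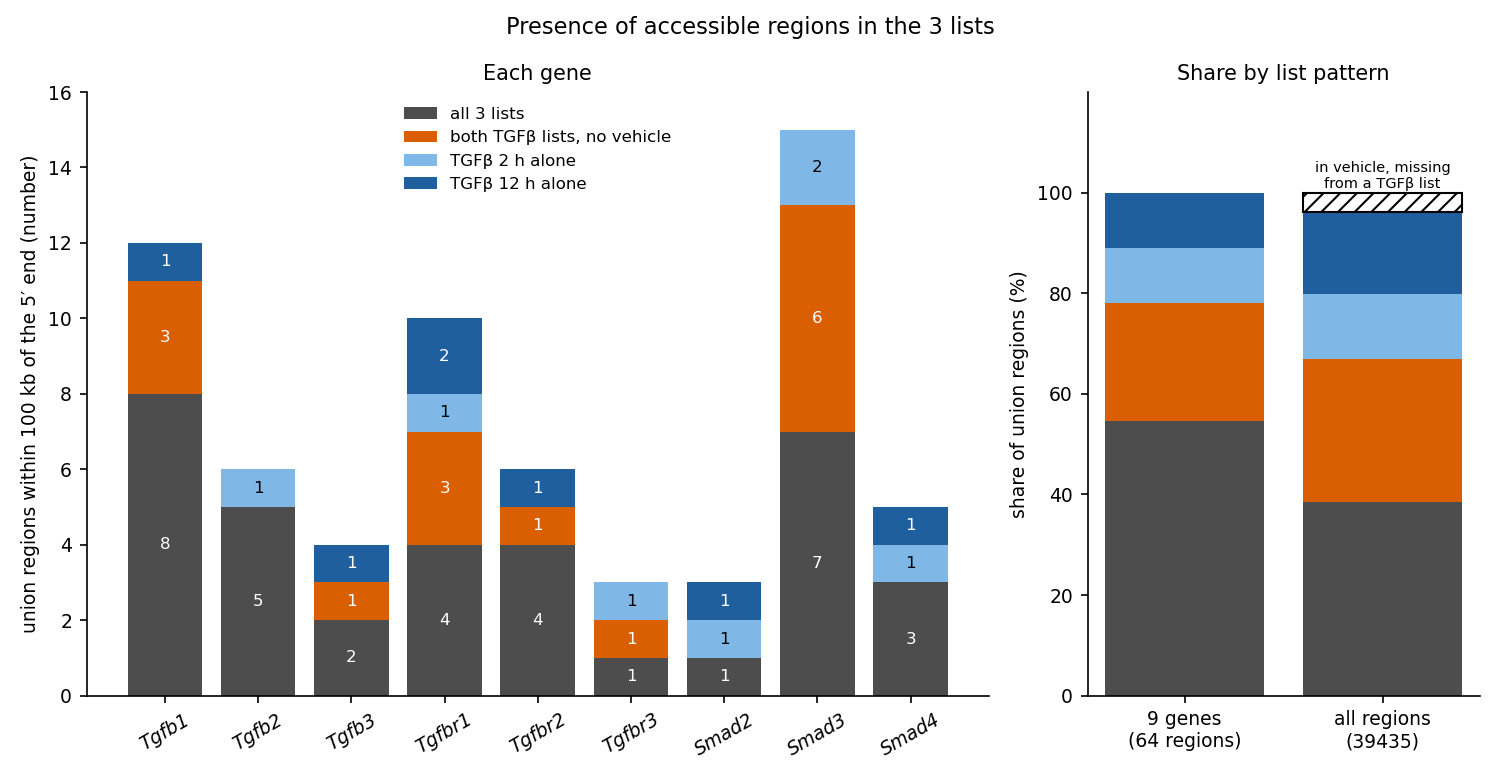
Number of union regions within 100 kb of each 5′ end by the lists that held them (left), and the share of each pattern among the 64 regions near the 9 genes and among all 39435 regions (right). Smad3 has the most gained regions (6), and with the full lists the 9 genes have no region that was in the vehicle list and missing from a TGFβ list.

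The region over the 5′ end itself marks the promoter. It was present at 5 of the 9 genes in the vehicle list (35.9% of all protein-coding genes), at 6 in the 2 h list (41.4%) and at the same 6 in the 12 h list (41.6%). A region within 1000 bp of the 5′ end was present at 7, 8 and 8 genes, against 39.4%, 45.0% and 45.0% of all genes, a reading added after the lists had been seen. Tgfb1 was the 1 gene covered in both TGFβ lists and not in vehicle, a pattern of 4.72% of protein-coding genes. Tgfb2, Tgfb3 and Tgfbr3 were covered in no list, as were 57.1% of protein-coding genes.

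**Figure D3:**
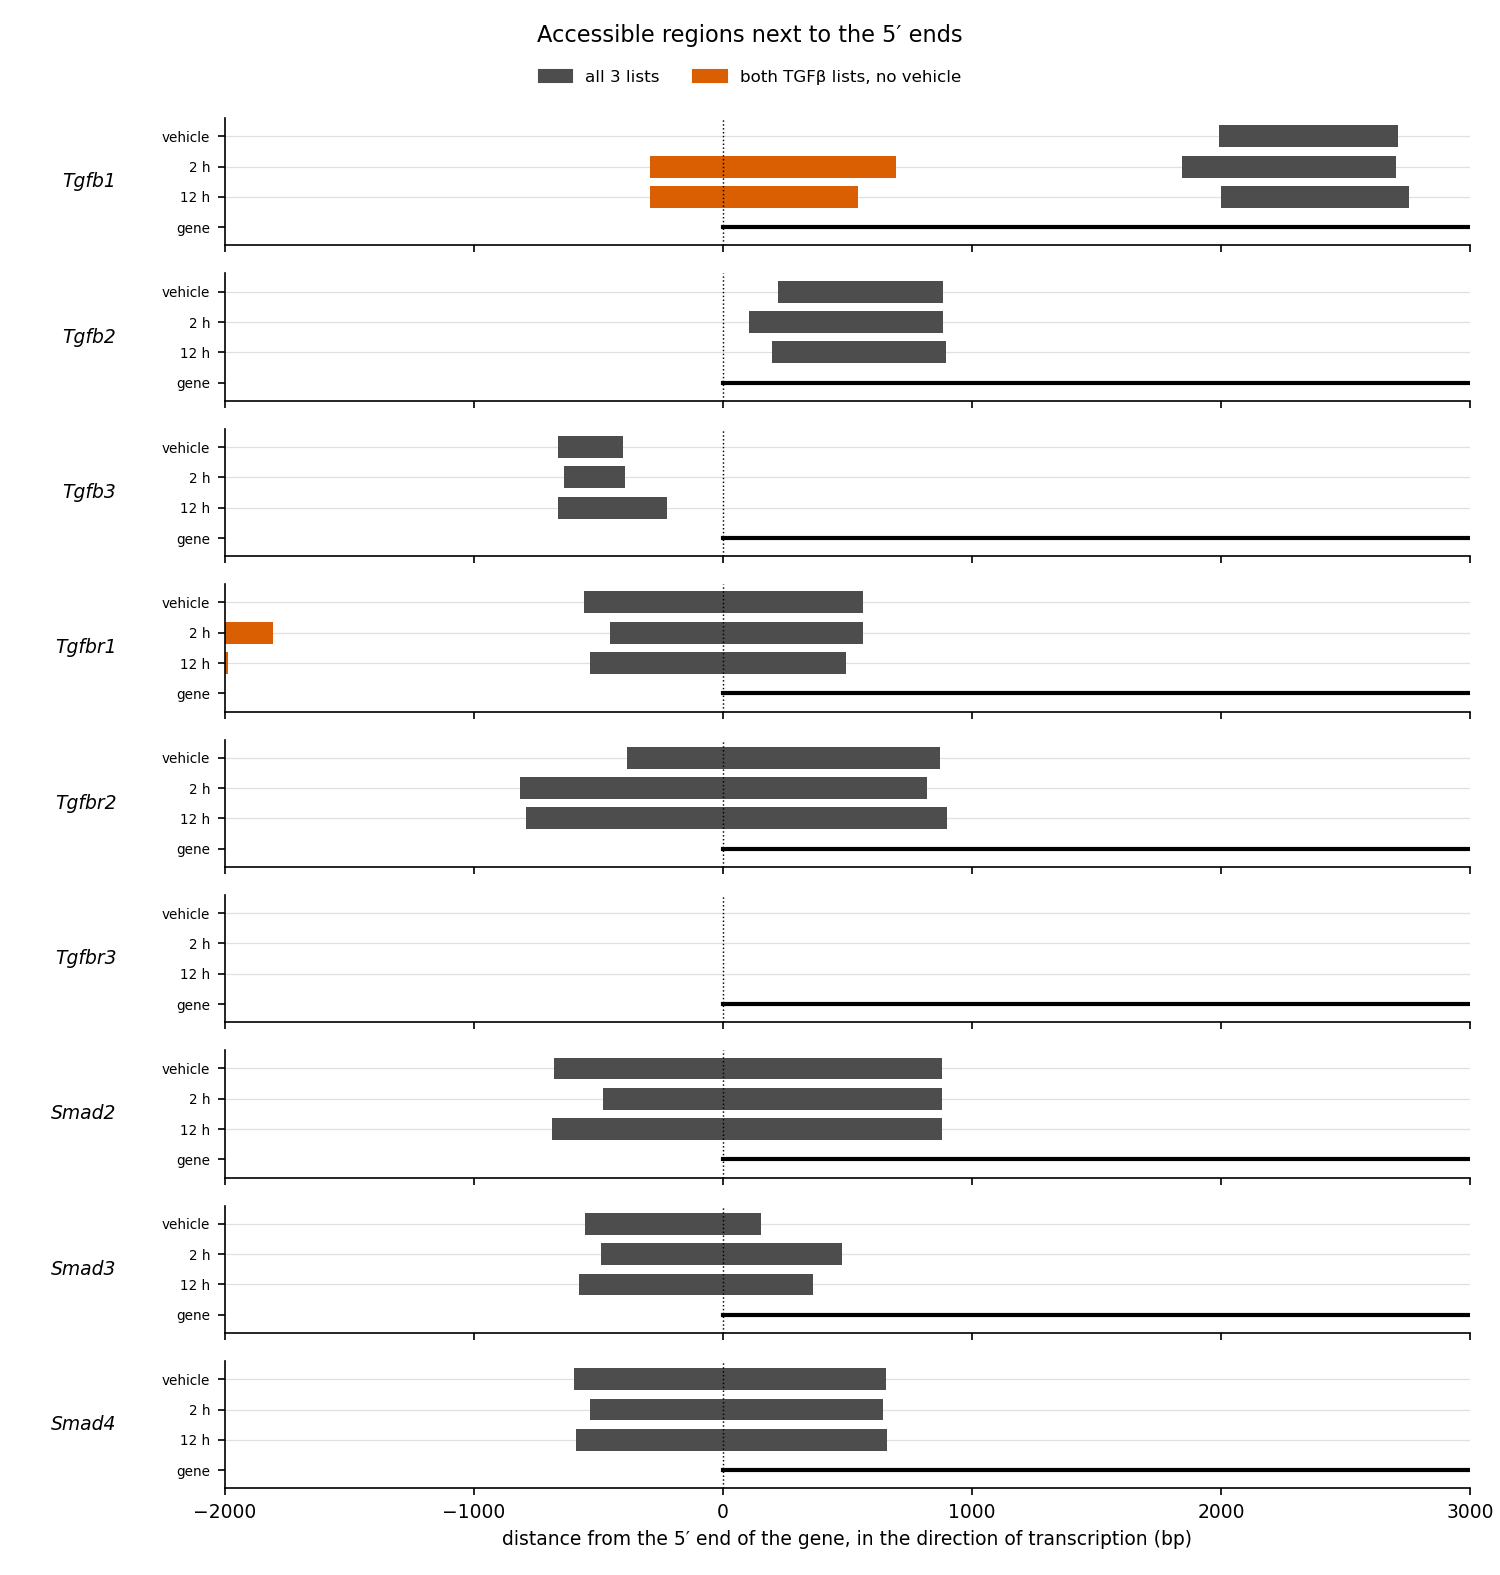
Regions next to the annotated 5′ end of each gene in the 3 lists. The horizontal axis is the distance from the 5′ end in bp, in the direction of transcription, bars are regions and the black line is the gene. Tgfb1 has a region over its 5′ end in the 2 h list (990 bp) and the 12 h list (834 bp) but none in the vehicle list. Tgfbr1, Tgfbr2, Smad2, Smad3 and Smad4 have one in all 3 lists. Those of Tgfbr1, Smad2 and Smad4 are narrower at 2 h than in vehicle, for example 1358 bp against 1556 bp at Smad2.

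Among the ligands, Tgfb1, the most widely expressed isoform, lies on chromosome 7 from 26472021 to 26490096 on the plus strand. Its promoter region, on chromosome 7 from 26471726 to 26472715 over an untranslated exon, was not in the vehicle list. It was listed with 990 bp after 2 h and 834 bp after 12 h. A further region, in an intron 1844 bp from the 5′ end and within 1000 bp of the start of another transcript, was in all 3 lists, with 721 bp in vehicle cells, 858 bp after 2 h and 758 bp after 12 h. The start of that transcript, annotated as subject to nonsense-mediated decay, lay inside the region in the 2 h list alone. So accessible DNA near the Tgfb1 start was listed in vehicle cells as well, but not over the annotated 5′ end.

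The widest gained region near Tgfb1 lay 42121 bp downstream in an intron of Hnrnpul1, which encodes an RNA-binding protein, with 1043 bp after 2 h and 937 bp after 12 h. The third gained region was narrow, with 264 bp after 2 h and 259 bp after 12 h. It lay just past the gene, 18905 bp from its 5′ end, and holds the AP-1 match printed first above. A region 455 bp wide in an intron of Axl, a receptor tyrosine kinase, was in the 12 h list alone.

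The same window had the largest increase in width near any of the 9 genes. A region over an untranslated exon of the neighbor Ccdc97, 22959 bp downstream, measured 505 bp in vehicle and 2293 bp at 12 h. At 2 h this stretch held separate regions, of which the one over the vehicle region measured 613 bp, so at 12 h the region also spans DNA that was listed apart at 2 h. The vehicle region was 1 listed interval and the 12 h region was joined from 3, so the increase is not the growth of 1 interval. The promoter region of Ccdc97 measured 414 bp in vehicle cells, 1515 bp after 2 h and 1495 bp after 12 h. It was 1 listed interval in vehicle and was joined from 2 intervals in each TGFβ list. At Hnrnpul1, by contrast, the promoter region measured 1916, 1946 and 1932 bp in the same order.

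Tgfb2, the isoform that most depends on betaglycan for binding its receptors, lies on chromosome 1 from 188447065 to 188529871 on the minus strand. No list had a region over its 5′ end, but all had one that began shortly inside the gene, over the untranslated part of an exon, 104 bp from the 5′ end at the nearest. It measured 665 bp in vehicle cells, 780 bp after 2 h and 698 bp after 12 h. The start of another coding transcript of Tgfb2 lay inside this region in all 3 lists. None of the 6 regions near Tgfb2 was gained. The 1 region missing from vehicle was an intronic one of 685 bp at 2 h alone, 49058 bp downstream. The region whose width changed most lay 95372 bp downstream, past the gene, and measured 261, 933 and 671 bp in vehicle, 2 h and 12 h.

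Tgfb3, on chromosome 12 from 87397694 to 87419991 on the minus strand, also had no region over its 5′ end. The nearest lay 224 bp upstream of it and was narrow, with 260 bp in vehicle cells, 245 bp after 2 h and 440 bp after 12 h. Its 1 gained region lay 78080 bp away in an intron of Ttll5, with 287 bp after 2 h and 374 bp after 12 h. A second region in an intron of Ttll5, of 344 bp, was at 12 h alone. The region that widened most lay at the start of the neighbor 1700019E19Rik, with 221, 458 and 471 bp. No region lay inside Tgfb3 in any list.

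Among the receptors, Tgfbr1, the type I kinase, lies on chromosome 4 from 47366094 to 47427803 on the plus strand. Its promoter region was in all 3 lists and did not widen, with 1121 bp in vehicle cells, 1016 bp after 2 h and 1027 bp after 12 h. The change was -105 bp at 2 h and -94 bp at 12 h. Of all genes with a matched region over the 5′ end, 8.15% changed by that much or less at 2 h and 6.73% at 12 h, where the medians were +146 bp and +180 bp.

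Most other regions around Tgfbr1 lay upstream in or next to Col15a1, which encodes a collagen of basement membranes, and nearer to that gene. The gained region nearest to Tgfbr1 lay 1807 bp upstream of the 5′ end, with 411 bp after 2 h and 229 bp after 12 h. The widest, 49312 bp upstream over the start of another Col15a1 transcript, had 658 bp after 2 h and 645 bp after 12 h and holds both AP-1 matches shown for it. The third lay in an intron of Col15a1, with 498 and 395 bp. No region was listed inside the body of Tgfbr1 beyond its promoter. The largest change in width of a shared region in this window was from 1146 bp in vehicle to 1321 bp after 2 h and 1342 bp after 12 h, over a coding exon of Col15a1.

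Tgfbr2, the type II kinase that binds ligand first, lies on chromosome 9 from 115993415 to 116084383 on the minus strand. Its promoter region measured 1257 bp in vehicle cells, 1636 bp after 2 h and 1691 bp after 12 h, the largest widening of a promoter among the 9 genes. The vehicle region was 1 listed interval, while that at 2 h was joined from 3 and that at 12 h from 2. Any gap between joined intervals counts in these widths, so they need not reflect the growth of 1 interval. Of genes with a matched region over the 5′ end, 80.3% changed by that much or less at 2 h, and 80.7% at 12 h. The vehicle region reached 384 bp upstream of the 5′ end, that at 2 h 816 bp and that at 12 h 792 bp, so the added width lay mostly on the upstream side. An AP-1 match lay 19 bases upstream of the 5′ end, within the last bases of the Tgfbr2 sequence printed above, where it reads tgagtca. Of all start-site regions in all 3 lists, 6.81% had such a match.

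The gained region at Tgfbr2 lay in an intron, 21143 bp from the 5′ end, on chromosome 9 from 116061863 to 116063240. It was listed with 1365 bp after 2 h and 666 bp after 12 h. The Smad palindrome printed above is within the span of the 2 h region and outside the part listed at 12 h, which ended at 116062528. The 2 h region was joined from 2 listed intervals, and whether the palindrome lies in one of them or between them was not examined. With an overlap of at least 50% of the union region required, it no longer counted as present in both lists. Upstream of the gene, regions 11587, 43320 and 48121 bp away were in all 3 lists, and none of them was wider by more than 283 bp in a TGFβ list. A region of 332 bp over an untranslated exon was at 12 h alone.

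Tgfbr3, the co-receptor, lies on chromosome 5 from 107535589 to 107718648 on the minus strand and had the sparsest surroundings among the receptors. When the 5′ end of any transcript counted, it had 6 union regions, as many as Tgfbr2. No region lay within 1000 bp of its 5′ end, and none lay in the first 100 kb of the gene body. The nearest was 5416 bp upstream, with 264 bp in vehicle cells, 475 bp after 2 h and 473 bp after 12 h. Its gained region lay over the start of Brdt, a testis gene for a bromodomain protein, 69772 bp upstream, with 449 and 452 bp. A region of 309 bp was at 2 h alone.

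Among the signal transducers, Smad3, which binds DNA directly in the activated complex, lies on chromosome 9 from 63494574 to 63605801 on the minus strand. Of its 15 regions, 11 lay inside the gene. The regions covered 2398 bp in vehicle cells, 8127 bp after 2 h and 7611 bp after 12 h, ratios of 3.39 and 3.17 to vehicle. The median over the 17229 genes with a vehicle region was 1.73 at 2 h and 1.78 at 12 h. Higher ratios were found at Tgfbr3, with 4.67 after 2 h and 3.50 after 12 h, from a single vehicle region of 264 bp, and at Tgfb3 after 12 h, with 3.39 from 481 bp in vehicle. The promoter region was in all 3 lists, with 709 bp in vehicle cells, 968 bp after 2 h and 937 bp after 12 h, a change of +259 and +228 bp.

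Of the 6 gained regions at Smad3, 4 lay in its introns and 2 upstream. The nearest to the 5′ end lay 3442 bp upstream, with 270 bp after 2 h and 204 bp after 12 h. The widest lay 80852 bp upstream in no protein-coding gene, with 773 bp after 2 h and 1058 bp after 12 h. The intronic ones lay 11277, 35987, 51240 and 56181 bp from the 5′ end, and their widths ran from 362 to 835 bp at 2 h and from 304 to 826 bp at 12 h. AP-1 matches were found in the central 500 bp of 4 of the 6, those printed above, beside 51.6% of all distal gained regions of the study. The region whose width changed most was intronic as well, 79483 bp from the 5′ end, with 289 bp in vehicle cells, 1024 bp after 2 h and 1090 bp after 12 h. Regions of 418 and 288 bp were at 2 h alone, and none was at 12 h alone.

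Smad2, the other receptor-activated Smad, and Smad4, the common partner, both lie on chromosome 18 and had few regions. The Smad2 promoter region measured 1556 bp in vehicle cells, 1358 bp after 2 h and 1564 bp after 12 h. It was the only region of that window in all 3 lists. The other regions lay upstream, one 80493 bp away and 239 bp wide at 2 h alone, and one 76091 bp away and 771 bp wide at 12 h alone. No region was listed inside the body of Smad2 beyond its promoter.

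The Smad4 promoter region measured 1254 bp in vehicle cells, 1180 bp after 2 h and 1251 bp after 12 h. The changes at Smad2 (-198 bp at 2 h and +8 bp at 12 h) and Smad4 (-74 and -3 bp) lay below the medians of all promoters. A change as low as that of Smad2 or lower was seen at 3.29% of genes at 2 h and at 17.4% at 12 h, and for Smad4 at 10.2% and 14.9%. Of the other Smad4 regions, one 80371 bp downstream widened most, from 223 bp in vehicle to 605 bp after 2 h and 568 bp after 12 h. The promoter region of its neighbor Elac1, which encodes an enzyme of tRNA maturation, measured 470, 657 and 562 bp. Neither Smad2 nor Smad4 had a gained region within 100 kb with the main settings.

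Set side by side, the promoters thus fell into different patterns. Tgfb1 was covered after TGFβ only, Tgfbr2 and Smad3 were wider in both TGFβ lists than in vehicle, Tgfbr1, Smad2 and Smad4 were wider by at most 8 bp, and Tgfb2, Tgfb3 and Tgfbr3 had no region over the annotated 5′ end. The widest vehicle regions at promoters were those of Smad2, Tgfbr2, Smad4 and Tgfbr1, and of these only that of Tgfbr2 was wider by more than 8 bp in a TGFβ list. The vehicle score was 1000 at Tgfbr1, Tgfbr2 and Smad2, 983 at Smad3 and 801 at Smad4, on a scale that ran from 540 to 1000 and is not stated.

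All 35 vehicle regions near the 9 genes could be matched to a single region of each TGFβ list. Over the whole study, 15960 of 16765 vehicle regions could be matched at 2 h and 15163 at 12 h. At 2 h, 29 of 35 were wider (82.9%, 95% Wilson interval 67.3 to 91.9), against 82.7% of all matched regions. At 12 h, 30 of 35 were wider (85.7%, 70.6 to 93.7), against 83.6%. The median difference was 137 bp after 2 h and 151 bp after 12 h, beside 147 bp and 175 bp over all matched regions. The vehicle region lay wholly inside the TGFβ region in 24 cases at 2 h (63.3% of all) and in 25 at 12 h (64.5% of all). In width the shared regions of these genes were thus near the study as a whole.

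By role, 13 of 15 matched regions near the ligand genes were wider at 2 h and 14 of 15 at 12 h. Near the receptor genes these were 7 of 9 and 6 of 9, and near the Smad genes 9 of 11 and 10 of 11. The narrower ones at 12 h were the regions at the promoters of Tgfbr1 and Smad4, regions 11587 and 48121 bp upstream of Tgfbr2, and a region in Axl downstream of Tgfb1. The median vehicle score of the 35 was 910, and 13 had the highest score of 1000, against 52.1% of all vehicle regions.

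**Figure D4:**
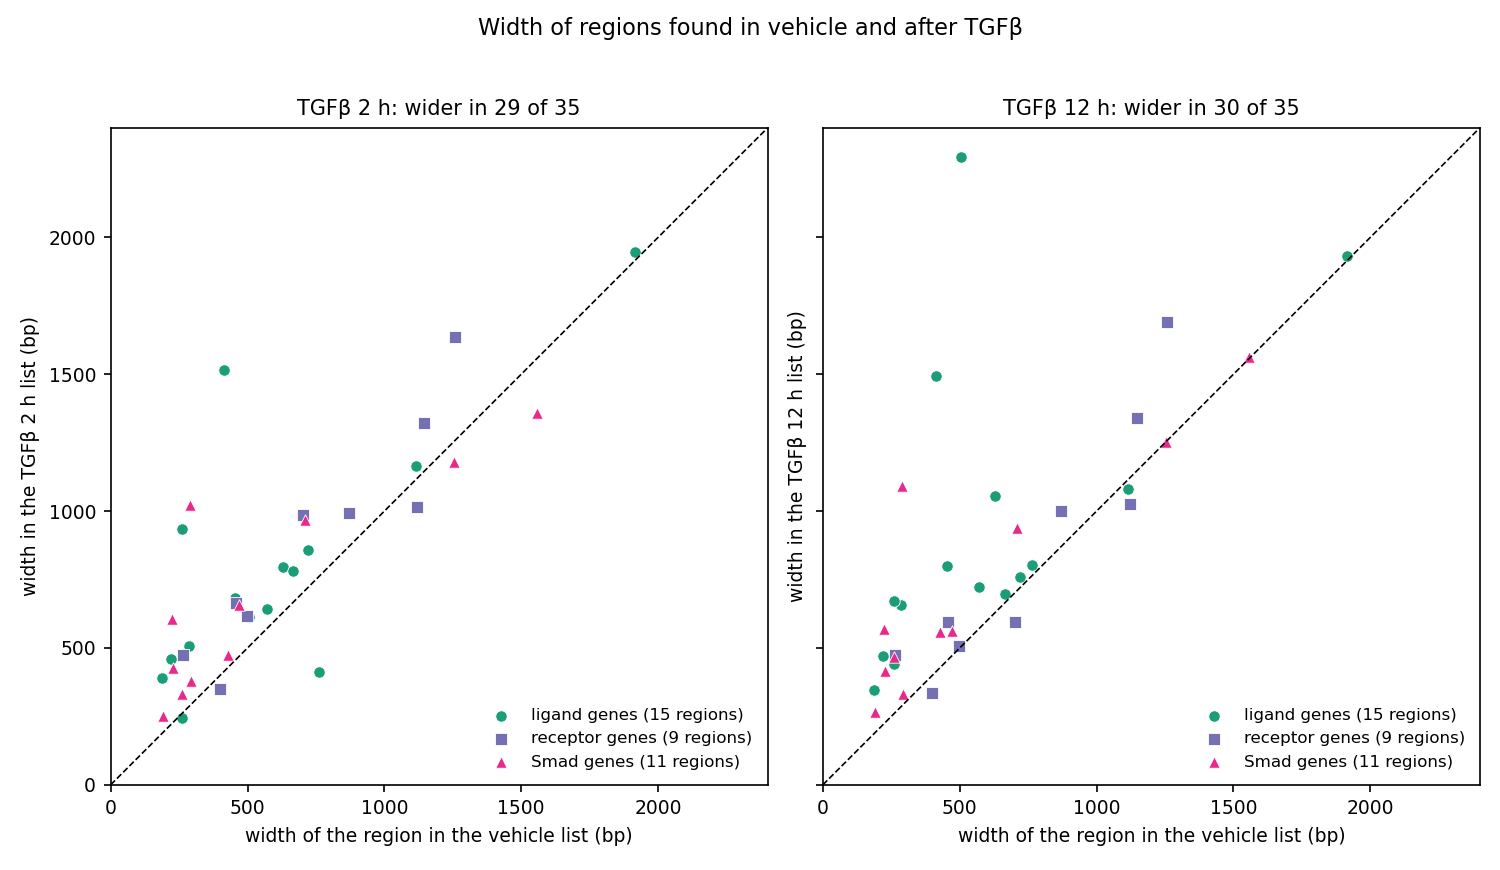
Width in bp of the 35 regions found in vehicle and after TGFβ, in the vehicle list (horizontal axis) and in the 2 h (left) or 12 h list (right, vertical axes). Each point is a region, the dashed line marks equal width, and 29 of 35 points lie above it at 2 h and 30 of 35 at 12 h. The point highest above the line at 12 h is the region in Ccdc97 near Tgfb1, 505 bp in vehicle and 2293 bp at 12 h, there joined from 3 listed intervals.

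Seen from the TGFβ lists, 23 of 58 regions of the 2 h list were missing from vehicle (39.7%, 28.1 to 52.5), against 50.7% of all 2 h regions. At 12 h, 22 of 57 were missing from it (38.6%, 27.1 to 51.6), against 53.9% of all. The share of the whole study lay inside the counting interval at 2 h and above it at 12 h. The TGFβ lists were longer, with 32548 and 33079 regions against 16765 in vehicle. When each was shortened to as many of its widest intervals as the vehicle list held, 7 of the 15 gained regions were still in both TGFβ lists. These were the Tgfb1 promoter region, the region in Hnrnpul1, the Col15a1 region 49312 bp upstream of Tgfbr1, the Tgfbr2 intronic region and 3 at Smad3. This shortening selects regions by width alone, and the same share over all gained regions of the study was not computed.

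Motifs were searched as exact matches on both strands in the 500 bp around the center of each region. AP-1 was read as TGACTCA or TGAGTCA, which are each other's reverse complement, the Smad palindrome as GTCTAGAC, and CTCF, an insulator protein, by its consensus. AP-1 matches were found in 26 of the 64 regions (40.6%), against 35.6% of all union regions. Among the distal regions 21 of 42 had one (50%, against 46.0%), with 10 of 16 in all 3 lists (62.5%, against 48.6%) and 6 of 12 gained (50%, against 51.6%). Start-site regions had one in 5 of 22 cases (22.7%, against 10.2%). The Smad palindrome was found in 1 of 64 regions, against 0.819% of all, and CTCF in none, against 4.03%. A match describes the letters in the window and is not evidence that the factor binds there.

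The wider pathway was read from a list of 35 further genes. A region over the 5′ end was listed for 16 of them in vehicle, for 20 at 2 h and for 19 at 12 h (45.7%, 57.1% and 54.3%, against 35.9%, 41.4% and 41.6% of all protein-coding genes). The 5′ end was covered in all 3 lists for 16 genes, among them the type I and II receptors Acvr1, Acvr1b, Acvr2a and Acvr2b, and Smad1 and Smad5 of the BMP branch. It was covered in both TGFβ lists and not in vehicle for 3 genes (8.57%, against 4.72%). These were Ltbp1, whose product binds latent TGFβ (1671 bp after 2 h and 1530 bp after 12 h), Zfyve9, the Smad anchor SARA (1198 and 1225 bp), and Crebbp, a histone acetyltransferase that works with Smads (1683 and 1572 bp). At Crebbp the vehicle list had a region within 1000 bp of the 5′ end, and at Ltbp1 and Zfyve9 it had none. The 5′ end of the BMP receptor gene Bmpr1a was covered at 2 h alone, with 1456 bp, and the 12 h list had a region within 1000 bp of it. No list covered the 5′ ends of 15 genes (42.9%, against 57.1%). A gained region within 100 kb was present at 26 of the 35 genes, beside 6 of the 9 genes above and 62.7% of all protein-coding genes. The highest number was 9, at Eng, which encodes the co-receptor endoglin.

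The lists were also read for signs of cell type. Of 10 epithelial genes, the 5′ ends of Krt8, Krt18 and Ocln were covered in all 3 lists, that of the cadherin gene Cdh1 in both TGFβ lists and that of the claudin gene Cldn4 at 12 h, while Epcam, Cldn3, Cldn7, Esrp1 and Grhl2 were covered in none. These 3, 4 and 5 of 10 are near the 35.9%, 41.4% and 41.6% of all protein-coding genes, and show nothing particular to epithelium. Of 10 genes of leukocytes, endothelium, muscle, fat and fibroblasts, 0 were covered in any list.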

How the data were processed

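Per the labels and the study's methods, the authors mapped ATAC-seq reads to mm9 with the ENCODE pipeline and called peaks with MACS2. The submitters' processing notes name MACS2 2.1.2 and deepTools. Peaks that passed the irreproducible discovery rate filter in both replicates were deposited as 1 list per group. The vehicle list has a peak score deposited by the authors with no stated scale, used only as a description. In the TGFβ lists that column numbers the lines, and it was not used.

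Distinct intervals of at least 150 bp were kept and gaps under 1000 bp merged, per list and then over the lists for the union. The width of a region joined from several intervals includes any gap between them. Overlap of 1 bp counted as shared. Start sites were 86879 transcript 5′ ends of GENCODE vM1, and coordinates are 1-based. Matched regions overlapped each other alone. Shares have 95% Wilson intervals, which cover counting error only. Interval and motif functions were tested on simulated data.

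At each gene the text names the region over or nearest to the 5′ end, the nearest and the widest (at 12 h) gained region, the one whose width changed most between vehicle and 12 h, and any region lost from a TGFβ list. Other regions named were chosen after their values were seen. The genes and lists were chosen with earlier results of these data known. Groups were taken from the labels. Alternatives were other gaps, widths, list lengths, 5′ ends, windows and overlaps. Calculations used Python 3.11.15, numpy 2.4.6, pandas 2.3.3, scipy 1.17.1 and matplotlib 3.10.9.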

Additional observations from a re-analysis of the deposited data

How the results depend on the processing

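Of 80 recomputed summary values under 9 alternative settings, 66 stayed within 1.5 times the count or within the counting interval given above. With only the wider intervals of each list, the windows held 36 union regions, 13 of them in all 3 lists. The shares without a vehicle region were then 55.2% at 2 h and 59.4% at 12 h, and 69.2% of matched regions were wider at 12 h. With the TGFβ lists shortened to the length of the vehicle list, 20 regions were in all 3 lists, 7 were gained, and the share of 2 h regions missing from vehicle was 27.6%. With 50 kb to either side there were 40 union regions, 9 of them gained, and with 200 kb there were 112, of which 55 were in all 3 lists and 26 gained, by construction of the windows. With a reciprocal overlap of 50%, the share of 12 h regions missing from vehicle was 52.6%. The number of promoters covered moved by at most 1, when the 5′ end of any transcript counted. At single genes, 72 of 243 counts moved by over 1.5 times. No paired analysis was possible because the lists combine both replicates of a group, and for the same reason leaving out a replicate was not run.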
